A study of Homo sapiens with 18 samples.

Results

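The long noncoding host genes of small nucleolar RNAs (snoRNAs) were examined in control and Erastin-treated U87MG cells. They were taken as the rows of the count table whose Ensembl identifier carries the symbol SNHG with a number, GAS5, DANCR, ZFAS1 or EPB41L4A-AS1, and they came to 32 of 58302 genes. RNA-seq had been performed on U87MG cells, an established human glioblastoma line, in 2 control libraries under normal growth and in 2 libraries of cells given 10 μM Erastin for 72 h. Erastin is a small molecule that blocks cystine uptake and induces ferroptosis, and the comparison asks which transcripts change in ferroptotic cells. All cells were grown in DMEM with fetal bovine serum and antibiotics, and the labels number the replicates without naming separate cultures, so that p-values measure the spread between these libraries, which may be technical.

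snoRNAs are short RNAs of the nucleolus that guide chemical modification of ribosomal and other RNAs. Box C/D snoRNAs (SNORD) direct ribose methylation, box H/ACA snoRNAs (SNORA) direct pseudouridylation, and the related SCARNAs act in Cajal bodies. Most are cut out of the introns of a host transcript after splicing. Hosts of the SNHG kind encode little or no protein, and many of their spliced RNAs are exported, meet the ribosome and are degraded by nonsense-mediated decay, so that the level of the spliced host need not follow that of its snoRNA. Several hosts begin with a 5′ terminal oligopyrimidine (TOP) tract, a C followed by a run of C or T, which they share with the genes of ribosomal proteins and translation factors. GAS5 was named for its accumulation in growth-arrested cells, and several SNHG transcripts have been studied in tumour growth.

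Libraries held between 29412656 and 31513519 counts, and TMM normalization factors lay between 0.971 and 1.02. Of the glioma and astrocyte markers, VIM (77887, 77105, 48117 and 54053 counts in control 1, control 2, Erastin 1 and Erastin 2) and CD44 were abundant, GFAP had 46, 41, 69 and 81 counts, and AQP4 was at 0 in every library. Of 8 such markers 5 were tested and 3 were lower, VIM, CD44 and NES (1277, 972, 105 and 77 counts, log2 fold change -3.62 with edgeR's quasi-likelihood test, adjusted p = 3.97e-08). CD3E and HBB, which define immune and blood cells, were also at 0, and none of the 5 markers of these cells was tested. Of 4 endothelial markers PECAM1 was lower and VWF higher, and of 4 epithelial markers none was called. Of 5 neuronal markers 3 were tested and 2 fell, SYT1 and SNAP25 (summed levels of the list 64.2 and 69.3 CPM in control and 26.6 and 25.6 CPM in Erastin libraries), where CPM are counts scaled to a common library size. SNAP25 had 1070, 1215, 95 and 135 counts (-3.31, adjusted p = 1.45e-08 by edgeR). The part of such marker changes in the results was not tested, and in bulk RNA fewer cells of a type and less RNA per cell cannot be told apart. The control libraries also differed from each other over the host genes. Control 2 exceeded control 1 by at least 1.3 times on the CPM scale in 11 of 26 tested host genes (42.3%) and in 13.1% of all tested genes, while control 1 exceeded control 2 by that much in 0 host genes. The cause was not tested, and calls that depend on control 2 are given with and without it.

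Of the 32 host genes, 26 had enough counts to be tested. With Erastin 7 of them were lower (26.9%) and 5 were higher (19.2%) at an adjusted p under 0.05 in edgeR's quasi-likelihood test, and 14 were not called. Over all 16751 tested genes, 23.7% were lower, 23.2% were higher and 47.0% were one or the other, so that the shares of host genes were near the background. With library totals in place of TMM, 5 host genes were lower and 7 were higher. In 10 host genes each Erastin library exceeded each control library, in 8 each was below, and in 8 the groups overlapped (38.5% and 30.8%, beside 36.7% and 36.9% of all tested genes). For the 26 host genes the median log2 fold change was 0.07, beside -0.0026 over all tested genes, and that of the 2349 tested lncRNAs was 0.0034. None of the host genes passed an added limit of 1 on the size of the log2 fold change (log2FC) in the edgeR fit, against 6.24% of all genes higher and 9.34% lower. At an unadjusted p under 0.05 with the same fold limit, edgeR gave 1 host gene higher and 0 lower, and DESeq2 called 0 past the fold limit in either direction.

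**Figure D1:**
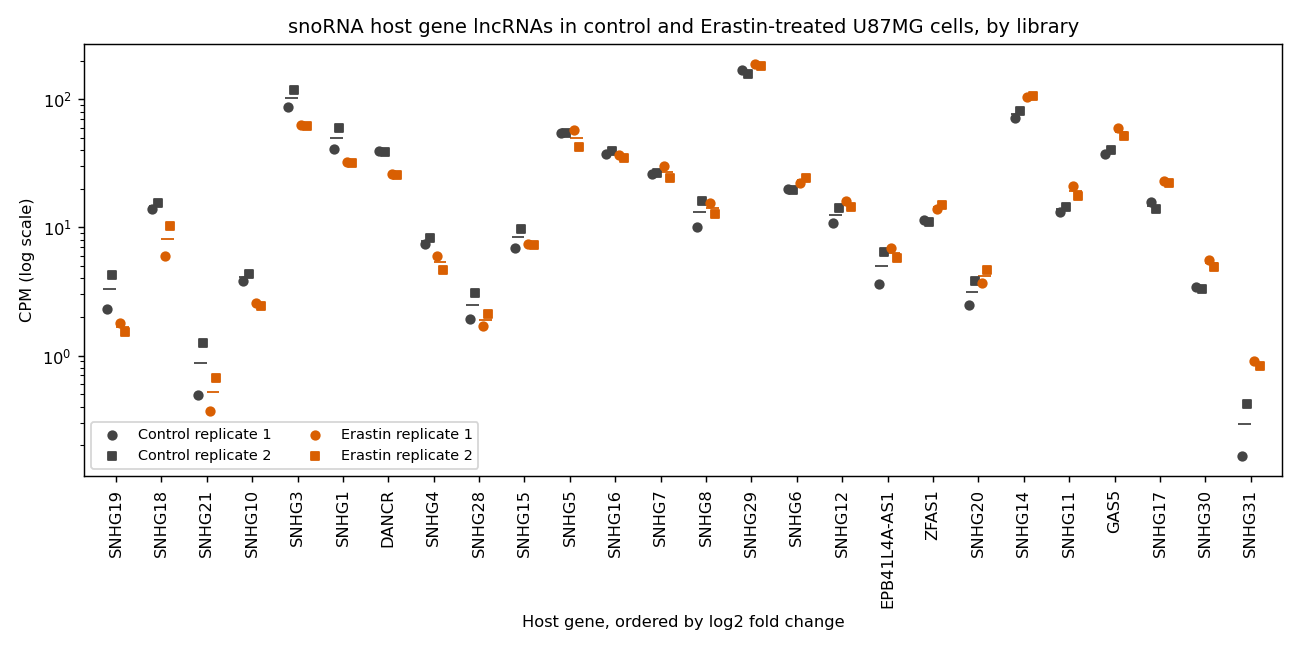
CPM on a log scale (vertical axis) of the 26 tested host genes (horizontal axis, ordered by log2FC) in each library. Circles are replicate 1 and squares replicate 2 of control (dark) and Erastin (orange), and short lines are group means. DANCR and SNHG10 at the left have both Erastin libraries below both control libraries, and SNHG14, GAS5 and SNHG17 at the right have both above.

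Levels were compared per length, in RPKM (CPM per kilobase of exon). The length was that of all exons, but reads on exon bases shared with another row were left uncounted. Such bases made up 17.8% for SNHG29, 11.0% for SNHG3, 2.51% for SNHG5, 11.9% for DANCR and 36.4% for SNHG6. Levels can thus be understated by unequal amounts, and the order below is that of counted reads only. SNHG29 had the highest level in control cells at 43.5 ± 2.02 RPKM (SD, n = 2), followed by SNHG3 at 24.9 ± 5.35, SNHG5 at 19.5 ± 0.226, DANCR at 17.1 ± 0.292 and SNHG6 at 15.9 ± 0.325. The intervals of 1 SD overlapped for SNHG3 and SNHG5, which did not differ beyond their spread, but not for the neighbours below them in this order. The lowest was SNHG31 at 0.138 ± 0.0855 RPKM. With Erastin SNHG3 went from rank 2 to rank 6 and GAS5 from rank 8 to rank 4. Ranks 4 to 6 did not differ beyond their spread, with GAS5 at 15.4 ± 1.51, SNHG8 at 15.3 ± 2.03 and SNHG3 at 15.2 ± 0.0285 RPKM. SNHG29 remained at rank 1 with 49.2 ± 1.66 RPKM. Summed over the tested host genes, CPM was 691 in control 1, 764 in control 2, 752 in Erastin 1 and 711 in Erastin 2, so that the groups overlapped.

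Among the host genes that fell, SNHG3 and SNHG1 had the most counts. SNHG3, on chromosome 1 of GRCh38 from 28505980 to 28510892 (plus strand), hosts SNORA73A and SNORA73B and had 2642 and 3645 counts in control and 1866 and 1955 in Erastin libraries. It fell with a log2FC of -0.71 (SE 0.12, the standard error, adjusted p = 0.000365 by edgeR). Both Erastin libraries were lower than both control libraries, and control 2 was the highest of the 4. SNHG1, on chromosome 11 from 62851988 to 62855914 (minus strand), hosts box C/D snoRNAs such as SNORD25 and SNORD30 and had 1253, 1839, 963 and 993 counts. It fell by 0.65 on the log2 scale (SE 0.14, adjusted p = 0.00274 by edgeR), again with the highest value in control 2. Without control 2 the log2FCs were -0.48 for SNHG3 (adjusted p = 4.20e-07) and -0.37 for SNHG1 (adjusted p = 0.0113).

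DANCR, named for its role against differentiation, carries SNORA26 and lies on chromosome 4 from 52712404 to 52720351 (plus strand). It had 1212 and 1202 counts in control and 779 and 804 in Erastin libraries, the closest agreement between replicates among the host genes that fell. DANCR fell with a log2FC of -0.60 (SE 0.096, adjusted p = 0.000313 by edgeR). SNHG18, which holds SNORD123, lies on chromosome 5 from 9546200 to 9550609 (plus strand) and had 424, 482, 178 and 320 counts. The groups did not overlap, but the Erastin libraries differed from each other. The log2FC of SNHG18 was -0.86 (SE 0.22, adjusted p = 0.00608 by edgeR), and it was -0.53 without Erastin 1 (adjusted p = 0.0423) and -1.30 without Erastin 2 (adjusted p = 9.34e-05).

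Some tested host genes start close to a protein-coding gene on the opposite strand. The windows of 2 of them, from 250 bases before to 50 bases after the RefSeq start (GRCh38.p14), are shown because each holds the annotated starts of both genes. That of SNHG1 is chr11:62855836-62856135 on the minus strand and that of SNHG18 is chr5:9545950-9546249 on the plus strand. Capitals run from one start to the other, 188 bases apart for SNHG1 and SLC3A2 and 125 bases apart for SNHG18 and SEMA5A, by the annotation of the count table.
SNHG1: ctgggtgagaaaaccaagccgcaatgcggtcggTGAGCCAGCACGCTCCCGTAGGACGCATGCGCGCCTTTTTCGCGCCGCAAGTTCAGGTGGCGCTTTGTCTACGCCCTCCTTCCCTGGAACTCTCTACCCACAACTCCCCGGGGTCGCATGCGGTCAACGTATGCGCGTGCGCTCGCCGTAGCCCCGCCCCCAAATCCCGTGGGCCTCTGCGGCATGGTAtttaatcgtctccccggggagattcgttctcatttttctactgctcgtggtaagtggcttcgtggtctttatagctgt
SNHG18: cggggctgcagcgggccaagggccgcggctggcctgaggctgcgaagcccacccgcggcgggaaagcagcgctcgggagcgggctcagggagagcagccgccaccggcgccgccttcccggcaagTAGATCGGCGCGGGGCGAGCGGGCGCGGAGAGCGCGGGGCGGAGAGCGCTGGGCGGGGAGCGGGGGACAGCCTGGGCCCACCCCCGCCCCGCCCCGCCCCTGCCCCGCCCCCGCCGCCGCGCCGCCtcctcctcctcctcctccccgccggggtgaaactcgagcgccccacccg

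The genes at these starts went opposite ways at one locus and the same way at the other. SLC3A2 encodes the heavy chain of amino acid transporters, among them system Xc-, which Erastin inhibits. It had 2827 and 2976 counts in control and 9049 and 8518 in Erastin libraries, and its log2FC was 1.61 (SE 0.075, adjusted p = 1.20e-08 by edgeR), while SNHG1 was lower. SEMA5A, a semaphorin of axon guidance, had 1986, 1788, 428 and 513 counts, and its log2FC was -2.00 (SE 0.11, adjusted p = 4.80e-08 by edgeR). SNHG18 was lower too, by a smaller amount. The exons of SNHG1 and SLC3A2 share 0 bases, as do those of SNHG18 and SEMA5A.

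SNHG19, SNHG10 and SNHG4 were lower in the main test but not under every alternative. SNHG19 holds SNORD60 and lies on chromosome 16 from 2154797 to 2155358. Its counts were 71, 133, 54 and 48, with a log2FC of -0.99 (SE 0.35, adjusted p = 0.0365 by edgeR). Control 2 stood well above the other libraries, and without it the log2FC of SNHG19 was -0.49 (adjusted p = 0.405). SNHG10, the host of SCARNA13 on chromosome 14 from 95532297 to 95534872, had 117, 135, 77 and 76 counts and a log2FC of -0.71 (SE 0.26, adjusted p = 0.0409 by edgeR). SNHG4, which holds SNORA74A on chromosome 5 from 139274102 to 139283244, had 228, 257, 179 and 147 counts and a log2FC of -0.56 (adjusted p = 0.0371 by edgeR). In both genes the groups did not overlap. Without control 2 SNHG10 had an adjusted p of 0.141 and SNHG4 one of 0.0898, and the calls of all 3 were also lost without Erastin 2, as were those of SNHG19 and SNHG10 without Erastin 1. With DESeq2 the adjusted p was 0.0877 for SNHG19, 0.132 for SNHG10 and 0.103 for SNHG4.

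GAS5 and SNHG17 were among the host genes that rose. GAS5, on chromosome 1 from 173863900 to 173868882 (minus strand), had 1143 and 1247 counts in control and 1785 and 1632 in Erastin libraries. The log2FC of GAS5 was 0.53 (SE 0.095, adjusted p = 0.000747 by edgeR). SNHG17, on chromosome 20 from 38420588 to 38435353 (minus strand), holds 5 rows of the SNORA71 family and had 482, 430, 690 and 699 counts. That of SNHG17 was 0.61 (SE 0.12, adjusted p = 0.00148 by edgeR). In both genes each Erastin library was above each control library, and both calls held when any single library was left out.

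SNHG14 is a transcript of chromosome 15 (24978583 to 25419462, plus strand) that runs through the imprinted SNORD116 and SNORD115 clusters and reaches UBE3A in antisense. It held 84 of the 139 snoRNA rows inside host genes and had 2178, 2525, 3131 and 3333 counts. The log2FC of SNHG14 was 0.47 (SE 0.079, adjusted p = 0.000462 by edgeR). SNHG11, on chromosome 20 from 38446578 to 38450921 (plus strand), starts 11225 bases from SNHG17 on the opposite strand. SNHG11 holds SNORA60 and SNORA71E and had 406, 446, 628 and 556 counts. Its log2FC was 0.48 (SE 0.13, adjusted p = 0.0109 by edgeR), and without Erastin 1 its adjusted p was 0.126. SNHG30, the host of SNORD7 on chromosome 17 from 35568109 to 35574843, had 105, 103, 167 and 154 counts and a log2FC of 0.63 (SE 0.23, adjusted p = 0.0386 by edgeR). The groups of all 3 genes did not overlap, but SNHG30 was not called by DESeq2 (adjusted p = 0.120) nor, by edgeR, with any 1 library left out (adjusted p between 0.0515 and 0.171).

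**Figure D2:**
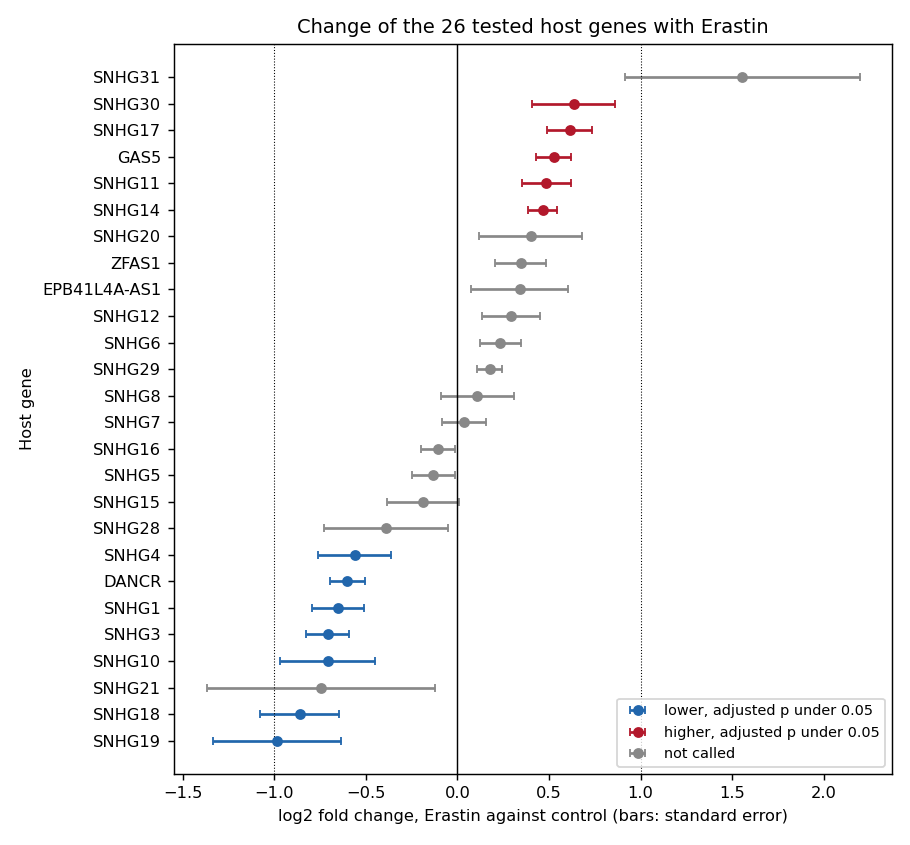
The log2FC of Erastin against control (horizontal axis) with its SE (bars) for the 26 tested host genes (vertical axis). Blue genes were lower and red genes higher at an adjusted p under 0.05, grey genes were not called, and dotted lines mark a log2FC of -1 and 1. Called genes lie between -0.99 and -0.56 and between 0.47 and 0.63, and the widest bars belong to SNHG31 and SNHG21, which have few counts.

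The most abundant host gene per length was among the 14 that were not called. SNHG29 had 5162, 4911, 5659 and 5668 counts, with no overlap of the groups, a log2FC of 0.18 and an adjusted p of 0.0525. SNHG29 passed the test by edgeR with the replicate number as a block (adjusted p = 0.0364), with library totals (0.0137), with 10 counts required in every library (0.0486) and without control 1 (0.0120). ZFAS1, which holds 3 SNORD12 rows, had 352, 344, 414 and 466 counts, again without overlap (0.34, adjusted p = 0.0581, and 0.0343 with library totals). SNHG31 had 5, 13, 27 and 26 counts and the largest difference in size, a log2FC of 1.56 with a SE of 0.64 (adjusted p = 0.0666). These 3 genes had each Erastin library above each control library without passing the main test.

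SNHG12 (330, 443, 482 and 457 counts, log2FC 0.29) and SNHG6 (614, 606, 668 and 762 counts, 0.23) also had higher values in both Erastin libraries, and SNHG16 (1143, 1229, 1099 and 1092 counts, -0.11) had lower values in both. The other 8 overlapped between the groups. SNHG5, a host of SNORD50B, had 1678, 1677, 1704 and 1333 counts (log2FC -0.13, adjusted p = 0.393). Without Erastin 1 the log2FC of SNHG5 was -0.36 and passed the test (adjusted p = 0.0268 by edgeR), and without Erastin 2 it was 0.066 (adjusted p = 0.680). SNHG7 had 801, 823, 894 and 760 counts (0.04).

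SNHG15 had 213, 303, 222 and 228 counts (-0.19), and SNHG8 had 308, 500, 462 and 402 counts (0.11). EPB41L4A-AS1, the host of SNORA13, had 110, 199, 206 and 182 counts (0.34). SNHG20 had 76, 118, 110 and 145 counts (0.40). In each of these 4 genes control 1 was the lowest library. Without control 2 the log2FC was 0.81 for EPB41L4A-AS1 (adjusted p = 0.00895), 0.50 for SNHG12 (adjusted p = 0.0143) and 0.48 for SNHG8 (adjusted p = 0.0237), and all 3 then passed the test. Among the host genes that overlapped between the groups, 2 had the fewest counts. They were SNHG28 with 59, 95, 51 and 66 counts (-0.39) and SNHG21 with 15, 39, 11 and 21 counts (-0.75).

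The 6 host genes left out by the filter on low counts had at most 8 counts in a library. SNHG22 had 6, 2, 4 and 5 counts, SNHG26 had 4, 8, 1 and 0, SNHG9 had 1, 4, 1 and 2, and SNHG25 had 0, 2, 2 and 0. SNHG32 had 0, 0, 2 and 0 counts and SNHG27 had 0 in every library. RPS2, a ribosomal protein gene whose start lies 99 bases from that of SNHG9, had 23467, 18229, 22693 and 21865 counts, and ACAA2, 63 bases from SNHG22, had 570, 517, 447 and 473, and neither was called. Without control 1 RPS2 was higher (log2FC 0.31, adjusted p = 3.61e-05 by edgeR), and without control 2 its log2FC was -0.086 (adjusted p = 0.332). Every 31-base word of the exons of SNHG32 (100%) also occurs on an alternate scaffold of hg38, and 62.2% of those of SNHG27 occur more than once on the chromosomes. A read that aligned to several places was not counted, so that the counts of these genes cannot be read as their levels. For SNHG32 this depends on whether alternate scaffolds were part of the authors' alignment, which was not examined. On the chromosomes 1.94% of its words are repeated. Of the called host genes, SNHG4 had the highest share of repeated words (31.5%), and the share was at most 14.9% in the other 11.

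Overlapping rows were a further limit. A read on exon bases shared by 2 genes, on the same or the opposite strand, was left uncounted, and of the 26 tested host genes 16 shared at least 10% of their exon bases with another row. SNHG21 (72.9%), SNHG28 (49.7%), EPB41L4A-AS1 (49.6%) and ZFAS1 (46.9%) shared most, and SNHG18, SNHG19 and SNHG31 shared none. SNHG1 and SNHG8 shared bases with rows of their own snoRNAs, and SNHG3 with RCC1 on its own strand. With the 16 left out, 5 of 10 host genes were higher and 2 were lower, beside 23.2% and 23.7% of all genes, and their median log2FC was 0.48. These are few genes, and they hold all 5 that rose. The 2 lower genes were SNHG18 and SNHG19, since SNHG1, SNHG3, SNHG4, SNHG10 and DANCR share 10% or more.

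Some overlapping genes changed themselves. RCC1, a chromatin-bound exchange factor that shares 242 exon bases with SNHG3 on the same strand, fell as well (2786, 2399, 1922 and 2141 counts, log2FC -0.35, adjusted p = 0.00691 by edgeR). GLRX5, a mitochondrial glutaredoxin opposite SNHG10, also fell (1570, 1362, 1012 and 1109 counts, -0.46, adjusted p = 0.00271). UBE3A, the ubiquitin ligase opposite SNHG14, rose (4407, 4041, 5067 and 5058 counts, 0.27, adjusted p = 0.0101). In each of these pairs the host and the overlapping gene moved the same way. ZNFX1, a zinc finger protein opposite ZFAS1, rose (4240, 4265, 6145 and 6538 counts, 0.58, adjusted p = 1.65e-05). Without Erastin 1 the calls of RCC1 (adjusted p = 0.0597) and UBE3A (adjusted p = 0.103) were lost. Reads of the 2 strands cannot be told apart in these counts, and the part of such reads in the values of the hosts was not tested.

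Of the other host genes with a start within 1000 bases of one on the opposite strand, SNHG31 and BARD1 (518 bases apart) stood on opposite sides of 0. BARD1, the partner of BRCA1, fell from 427 and 582 counts to 153 and 145 (log2FC -1.75, adjusted p = 1.02e-05 by edgeR), beside the 1.56 of SNHG31 that did not pass the test. The span of SNHG31 also overlaps ABCA12, a lipid transporter with 8, 7, 206 and 214 counts (4.79, adjusted p = 3.05e-07), though their exons share no bases. TRAF7, 340 bases from SNHG19, was slightly lower (-0.22, adjusted p = 0.0444). ZBTB37, whose start lies 800 bases from that of GAS5 within its span, had 553, 588, 441 and 552 counts (-0.20, adjusted p = 0.247). There were 29 named neighbours of tested host genes, by overlap or by close starts. Of these 22 were tested, 5 were higher and 7 were lower, beside 23.2% and 23.7% of all tested genes. The lower ones not yet given were SLAMF8 opposite SNHG28 (-1.20, adjusted p = 0.0159) and LRRC75A opposite SNHG29 (28, 11, 2 and 6 counts, -2.25, adjusted p = 0.0469). The call of LRRC75A was lost with DESeq2 (adjusted p = 0.126), with a replicate block (0.0706) and without control 1, Erastin 1 or Erastin 2 (up to 0.476). TRNAU1AP, SNRPN, SEC14L1, VSIG8, SIL1, MATR3, MCMDC2, DIPK1B and the noncoding PWAR5 were, like ZBTB37, not called.

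**Figure D3:**
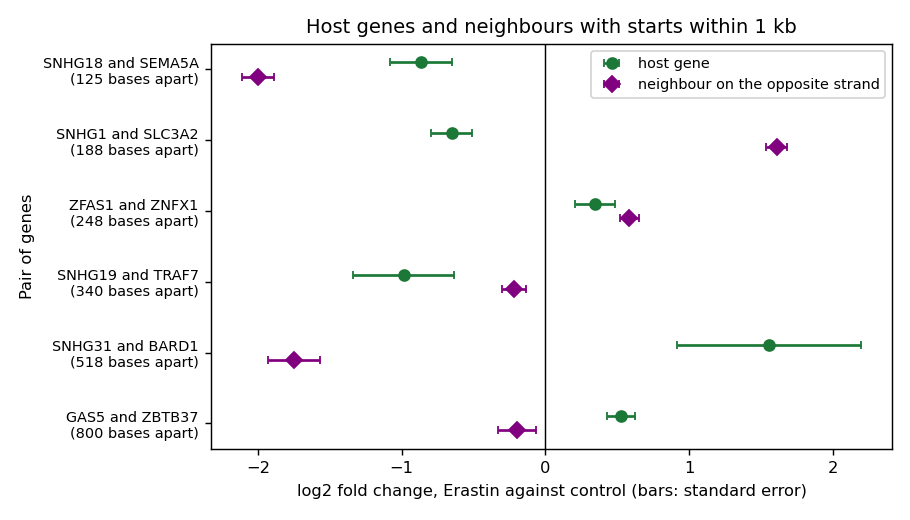
The log2FC with Erastin (horizontal axis) and its SE (bars) for tested host genes (green circles) and the tested protein-coding gene on the opposite strand whose start lies within 1000 bases (purple diamonds), ordered by the distance between the starts. SNHG1 at -0.65 and SLC3A2 at 1.61 stand on opposite sides of 0, whereas SNHG18 at -0.86 and SEMA5A at -2.00 are both below it.

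RefSeq start windows were found for 28 of the 32 host genes. A TOP-like tract was searched as a C at the RefSeq start followed by at least 4 bases that are each C or T, a total of at least 5, on the strand of the gene. It was present in 7 of the 28 (25.0%), namely SNHG4, SNHG5, SNHG12, SNHG18, SNHG19, SNHG32 and ZFAS1. Of the 35116 windows of all genes 4.07% had it. A single window was taken per host gene, while every window entered the share of all genes. The tract letters were set after the start sequences had been seen, so that the shares are no test. Stretches around the start are shown for 5 of these 7 host genes with the tract in capitals. One is also shown for GAS5, whose RefSeq start has no tract. They lie at chr5:139274091-139274130 (plus strand), chr16:2155329-2155368 (minus), chr6:85678704-85678743 (minus), chr1:28581844-28581883 (minus), chr20:49278632-49278671 (plus) and chr1:173869016-173869055 (minus) of GRCh38.p14.
SNHG4: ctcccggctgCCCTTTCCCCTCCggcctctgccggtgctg
SNHG19: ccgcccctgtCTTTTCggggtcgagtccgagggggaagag
SNHG5: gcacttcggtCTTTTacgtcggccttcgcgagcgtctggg
SNHG12: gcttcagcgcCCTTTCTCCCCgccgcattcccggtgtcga
ZFAS1: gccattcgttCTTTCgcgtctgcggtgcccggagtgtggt
GAS5: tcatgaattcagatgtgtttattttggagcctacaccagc

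Of the 7 host genes with a tract, 3 were lower (SNHG4, SNHG18 and SNHG19) and 0 were higher. Another 3 were not called (SNHG5, SNHG12 and ZFAS1) and 1 was not tested. Over all tested genes 23.7% were lower and 23.2% were higher. These are few host genes, and DESeq2 called neither SNHG4 nor SNHG19. All 5 host genes that rose had a window without a tract at its RefSeq start. The RefSeq start used here differed from the start of the counted row in all 5 host genes that rose. It differed by 163 bases for GAS5, 154975 for SNHG14, 76 for SNHG11, 25 for SNHG17 and 5 for SNHG30. A tract at the start of the counted row could thus be missed. Among the host genes that fell without a tract it differed by 37 bases for SNHG3, 29 for SNHG1, 10 for DANCR and 0 for SNHG10. Among the host genes with a tract it differed by 1110 bases for SNHG12, 464 for ZFAS1 and 308 for SNHG32. For SNHG4, SNHG5, SNHG18 and SNHG19 it differed by at most 3 bases. The tract was searched only at the RefSeq start, and the match is a description of the letters only. The letters CACGTG, an E-box that MYC and MAX can bind and that reads alike on both strands, were in the windows of 2 of the 28 host genes, SNHG7 and SNHG30 (7.14%), and in 7.26% of all windows.

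Counts on snoRNA rows were low. Of the 552 rows named SNORD, SNORA or SCARNA, 139 lay within 29 of the host genes on the same strand, 110 of them SNORD, 25 SNORA and 4 SCARNA. Only 29 of the 139 had a count in any library, and together they had 306, 339, 221 and 269 counts, so that both Erastin libraries were below both control libraries. Of these rows 8 passed the filter. Each row that overlaps an exon of its host had no count in any library. Reads on such shared bases were left uncounted, so that the lack of counts there does not give the level of the snoRNA. A counted read on a snoRNA row can come from the mature snoRNA or from unspliced host RNA, and these sources cannot be told apart. No row so named was found inside GAS5, SNHG27 or SNHG28 on the same strand.

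The rows inside SNHG11 and SNHG17 are shown because their counts and those of their hosts differed in direction. They were read from hg38 at chr20:38449370-38449503 (plus strand, in SNHG11), chr20:38427309-38427442 and chr20:38429670-38429803 (minus strand, in SNHG17), in introns by the annotation of the count table. Capitals mark the ACA box at the 3′ end that gives H/ACA snoRNAs their name.
SNORA60: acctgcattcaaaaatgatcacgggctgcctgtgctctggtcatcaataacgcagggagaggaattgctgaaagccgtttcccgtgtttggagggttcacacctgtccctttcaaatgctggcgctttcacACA
SNORA71A: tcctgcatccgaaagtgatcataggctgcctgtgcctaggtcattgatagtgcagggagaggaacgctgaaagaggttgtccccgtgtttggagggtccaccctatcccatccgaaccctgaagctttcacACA
SNORA71C: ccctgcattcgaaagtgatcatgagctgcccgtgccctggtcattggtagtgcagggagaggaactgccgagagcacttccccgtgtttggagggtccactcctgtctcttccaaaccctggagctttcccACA

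SNORA60 had 26 and 21 counts in control and 5 and 6 in Erastin libraries. Its log2FC was -2.07 (SE 0.68, adjusted p = 0.0252 by edgeR), whereas its host SNHG11 was higher. With DESeq2 the adjusted p of SNORA60 was 0.0946, and leaving out any 1 library gave adjusted p values between 0.0939 and 0.206 by edgeR. Inside SNHG17, SNORA71C had 11, 18, 4 and 3 counts (-2.00, adjusted p = 0.0686), SNORA71A had 12, 13, 4 and 5 (-1.44, adjusted p = 0.164), and SNORA71B had 28, 19, 11 and 23 (-0.47, adjusted p = 0.552). SNORA71A and SNORA71C had no overlap between the groups, but none of the 3 passed the test while SNHG17 itself was higher. SNORA71A and SNORA71C share 70.9% of their bases without gaps, and none of the 31-base words of these rows or of SNORA60 is repeated on the chromosomes of hg38.

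SNORA73B had the most counts of the snoRNA rows inside host genes. It had 145 and 146 in control and 103 and 122 in Erastin libraries (log2FC -0.37, adjusted p = 0.217), below both controls as was its host SNHG3. SNORD12B in ZFAS1 (22, 15, 17 and 24 counts), SNORD99 in SNHG12 (12, 12, 13 and 7) and SNORD104 in SNHG25 (2, 12, 14 and 3) overlapped between the groups. No change of these rows was detectable at this depth.

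**Figure D4:**
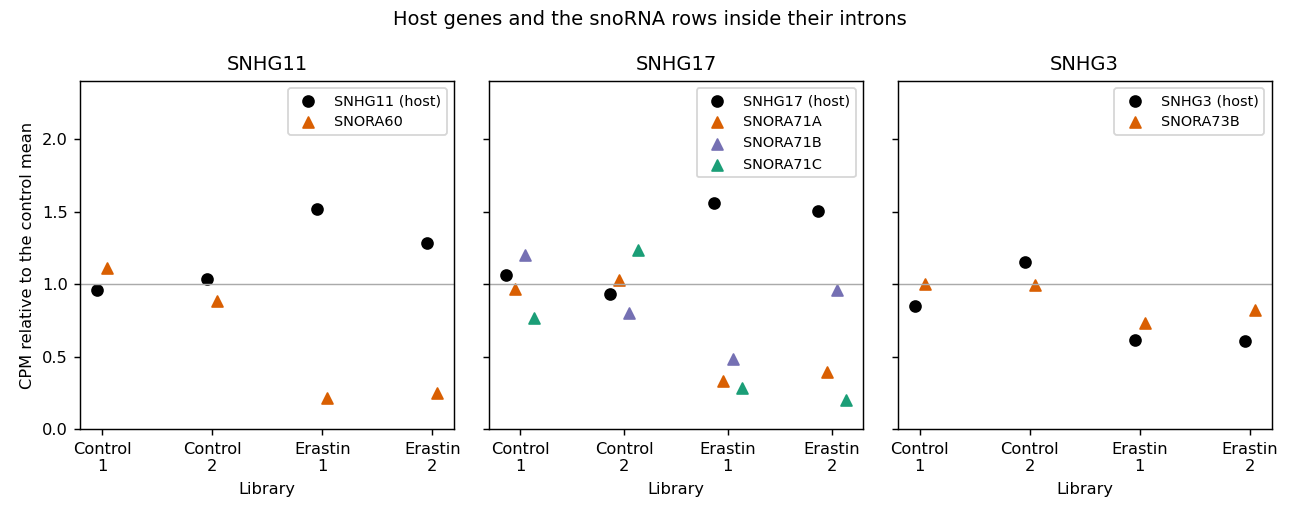
CPM in each library (horizontal axis) relative to the mean of the control libraries (vertical axis) for SNHG11, SNHG17 and SNHG3 (black circles) and for snoRNA rows in their introns (coloured triangles). SNHG11 and SNHG17 rise above 1 in both Erastin libraries while SNORA60, SNORA71A and SNORA71C fall below it, and SNORA73B and SNHG3 are both below 1. The rows other than SNORA73B rest on 3 to 28 counts per library.

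Other genes of the pathway were described from lists written for these roles. Of the proteins that bind snoRNAs or assemble them into particles (snoRNPs), 22 were tested, with a median log2FC of 0.04. Of these 5 (22.7%) were lower and 2 (9.09%) were higher, beside 23.7% and 23.2% of all tested genes. TCOF1, the nucleolar protein treacle, fell (4332, 3682, 2199 and 2429 counts, -0.79, adjusted p = 1.79e-05 by edgeR), as did RUVBL2, an ATPase of snoRNP assembly (2145, 2124, 1323 and 1416 counts, -0.63, adjusted p = 3.72e-05). ZNHIT6, an assembly factor of box C/D particles, rose (411, 574, 766 and 780 counts, 0.66, adjusted p = 0.00303), as did RPAP3 (0.26, adjusted p = 0.0168). DKC1, the pseudouridine synthase of box H/ACA particles, had a log2FC of -0.09 (adjusted p = 0.370). FBL, the methyltransferase of box C/D particles, had 1295, 45, 848 and 1183 counts, so that control 2 alone set its log2FC of 0.59 (adjusted p = 0.566). Without control 2 it was -0.37 (adjusted p = 0.0106).

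The factors of nonsense-mediated decay stood mostly on one side. Of 19 tested genes 12 were higher and 2 were lower, with a median of 0.34, beside 23.2% and 23.7% of all genes. SMG9 (1798, 1653, 3055 and 3237 counts, 0.87, adjusted p = 2.44e-06 by edgeR) and SMG8 (741, 820, 1251 and 1397 counts, 0.77, adjusted p = 5.99e-05), which regulate the SMG1 kinase, rose most. RNPS1, a factor bound near exon junctions (-0.42, adjusted p = 0.000395), and the termination factor GSPT1 (-0.20, adjusted p = 0.0192) were lower. UPF1, the central helicase of the pathway, had 4399, 3989, 3628 and 3990 counts and a log2FC of -0.13 that did not pass the test (adjusted p = 0.171). Without control 2 it was -0.22 and UPF1 passed the test (adjusted p = 0.0144 by edgeR).

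Of 16 tested exosome subunits and other decay enzymes 4 (25.0%) were higher and 5 (31.25%) were lower, beside 23.2% and 23.7% of all genes. EXOSC6 (1.08, adjusted p = 4.53e-06 by edgeR) and EXOSC4 (0.65, adjusted p = 0.00633) were higher, whereas EXOSC9 (-1.27, adjusted p = 1.55e-05) and the nuclear nuclease EXOSC10 (-0.59, adjusted p = 6.58e-05) were lower. Among 11 genes of growth control, the mTORC1 subunits MLST8 (0.67, adjusted p = 0.000225) and RPTOR (0.62, adjusted p = 2.40e-05) were higher. The transcription factor MYC (1871, 2179, 1086 and 1097 counts, -0.88, adjusted p = 9.87e-06) and RPS6 (-0.45, adjusted p = 0.000123) were lower. LARP1, which binds TOP mRNAs, had a log2FC of 0.02 (adjusted p = 0.871).

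TOP mRNAs other than those of ribosomal proteins were lower in 9 of 15 tested genes and higher in 1, with a median of -0.34. The shares of all tested genes were 23.7% lower and 23.2% higher. HNRNPA1, a splicing factor, fell (19645, 17889, 9349 and 9453 counts, -0.99, adjusted p = 4.46e-07 by edgeR), and TPT1, a translationally controlled protein, rose (0.54, adjusted p = 3.93e-05). EEF1B2 had uneven counts of 2072, 4478, 1395 and 278 (-1.94, adjusted p = 0.00876 by edgeR, and 0.181 by DESeq2), and its log2FC ran from -3.58 without Erastin 1 to -1.18 without Erastin 2.

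Protein-coding genes that hold a snoRNA row were compared with the noncoding hosts. Of 174 such genes 160 were tested, 36 (22.5%) were higher and 54 (33.8%) were lower, with a median log2FC of -0.07. Over all tested genes 23.2% were higher and 23.7% were lower. The ribosomal protein genes among them were lower in 13 and higher in 2 of 26, whereas the other 134 were lower in 41 and higher in 34. NCAPD2, a condensin subunit, fell from 6549 and 6254 counts to 1623 and 1608 (-1.98, adjusted p = 1.93e-09 by edgeR). Others past the test rested on 1 library, such as RPL7A with 25, 23, 24 and 123 counts (1.60, adjusted p = 0.0478, and 0.043 with adjusted p = 0.968 without Erastin 2) and MAGED4 with 182, 19, 28 and 8 counts (-2.46, adjusted p = 0.0304, and -0.048 with adjusted p = 0.973 without control 1). The row ENSG00000282034, with 10, 7, 22 and 42 counts, had a log2FC of 1.90 (adjusted p = 0.0242). Whether the noncoding and the protein-coding hosts differ was not tested.

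**Figure D5:**
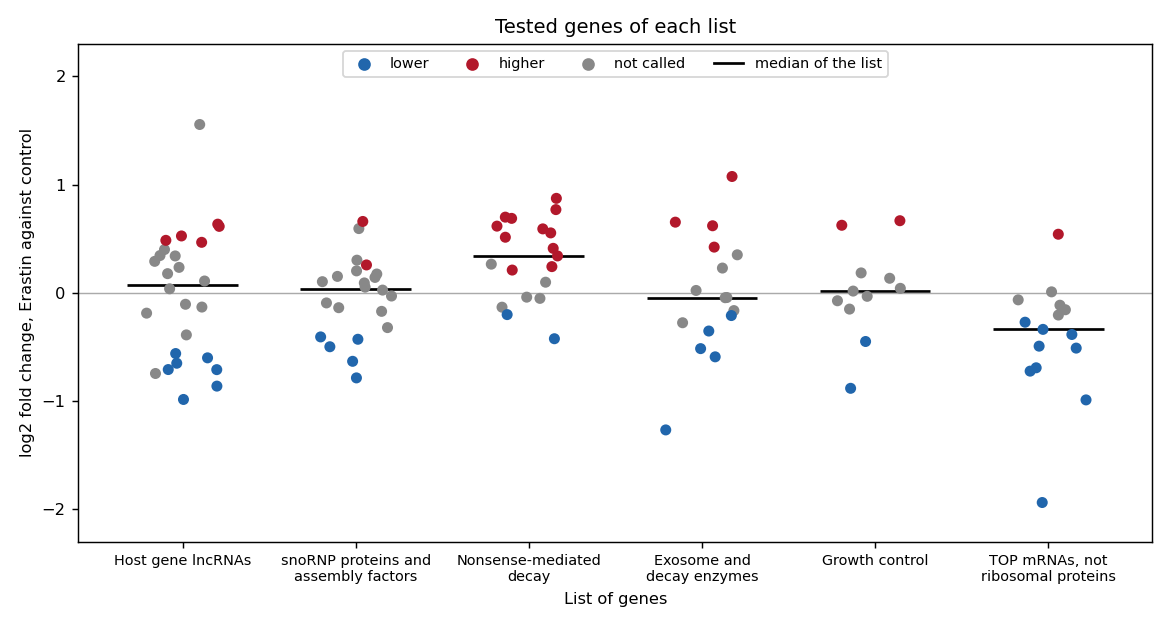
The log2FC with Erastin (vertical axis) of each tested gene in the host gene lncRNAs and in 5 lists of related genes (horizontal axis). Blue points were lower, red points higher and grey points not called at an adjusted p under 0.05, and black lines are medians. The decay factors have a median of 0.34 and the TOP mRNAs one of -0.34, while that of the host genes is 0.07 with called genes on both sides of 0.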

How the data were processed

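Total RNA of control and Erastin-treated U87MG cells had been sequenced in 4 libraries, and the selection step of the RNA libraries is not given in the sources used here. The authors deposited raw counts of reads per gene, without normalization, which per the file header were made by featureCounts 2.0.3 with the Ensembl release 90 annotation of GRCh38 (the submitters' processing notes name featureCounts 2.0.4 and HISAT2 2.1.0, and the paper names htseq-count). Strand was not used, reads on several genes or places were not counted, and each read of a pair was counted. One library of the deposited table was read as estimated counts and rounded, which changed 0 values. The authors also made ChIP-seq and HiChIP data, which were not analysed here.

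Host genes and lists were chosen with earlier results of these data known, and the tract letters after the start sequences had been seen. The counts of all genes entered one model in edgeR 4.0.16 under R 4.3.3 (a minimum count of 10 in filterByExpr, TMM, quasi-likelihood test, two-sided, Benjamini-Hochberg over 16751 genes). The test was checked on simulated data. The SE of a log2FC was its size divided by the square root of F. An exact permutation of 2 against 2 libraries cannot go below a p of 0.333. PCR reads are not independent molecules, so counts overstate the precision. The biological coefficient of variation was 10.3%. All tested host genes were named with counts, those of the largest change in each direction with full statistics, and up to 2 called genes per list and direction besides UPF1, FBL, DKC1, LARP1 and MYC. Other markers and list genes were picked with their values known. Alternatives were a replicate block, RLE size factors, DESeq2 1.42.0, library totals, no filter, 10 counts in every library, counts divided by 2, glmTreat, each library left out, and host genes with shared exons left out. Gene types came from GENCODE 44 and start sequences from RefSeq. A few genes that these rules name are not reported here.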

Additional observations from a re-analysis of the deposited data

How the results depend on the processing

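The calls of SNHG1, SNHG3, SNHG18, DANCR, SNHG14, GAS5 and SNHG17 held under the 11 alternatives computed for single genes. Tested by glmTreat against a log2FC of 1, 0 host genes were called, and leaving out shared exons drops SNHG1, SNHG3 and DANCR. Against 5 host genes higher, leaving out 1 library gave 3 to 7 (3 without Erastin 1). Against 7 lower, DESeq2 gave 4, leaving out 1 library gave 4 to 7 (4 without control 2 or without Erastin 2), and leaving out host genes with shared exon bases gave 2, with a median of 0.48 in place of 0.07. Leaving out 1 library gave medians of -0.079 to 0.18. Past the log2FC limit of 1, against 0 lower, counts divided by 2 gave 1, and leaving out 1 library gave 0 to 1. With 1 library left out, snoRNP factors gave 1 to 4 higher (2 with all libraries), factors of nonsense-mediated decay 1 to 3 lower (2) and exosome subunits and decay enzymes 3 to 6 lower (5). The lone library of a group was then assumed to vary like the others.

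With a replicate block, host genes were 6 higher and 7 lower, SNHG29 being added, past the log2FC limit of 1 there were 0, and the call of LRRC75A was lost (adjusted p = 0.0706). Deviations of same-numbered libraries correlated at 0.0338 over genes, and the labels name no pairing.

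With 1 library left out the sign turned for the following genes, and no turned value passed the test except that of FBL. The log2FC ran from -1.27 to 0.073 for SNHG21, -0.41 to 0.067 for SNHG15, -0.36 to 0.066 for SNHG5, -0.12 to 0.18 for SNHG7, -0.19 to 0.48 for SNHG8 and -0.018 to 0.81 for EPB41L4A-AS1. It ran from -0.12 to 0.13 for SNRPN, -0.36 to 0.014 for VSIG8, -0.086 to 0.31 for RPS2, -0.80 to 0.16 for SNORD99, -1.21 to 2.02 for SNORD104, -0.12 to 0.46 for SNORD12B, -0.37 to 4.50 for FBL and -0.056 to 0.080 for LARP1. Leaving out 1 library also ended, by edgeR, the calls of TRAF7 (adjusted p up to 0.360), LRRC75A (0.476), SLAMF8 (0.0730), GSPT1 (0.181), EXOSC4 (0.0993), RPAP3 (0.0938) and ENSG00000282034 (0.295). The cause was not tested.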
